A study of Drosophila melanogaster with 2 samples.

Results

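A set of 10 genes was taken as not being developmental regulators. Each had the nearest protein-coding transcription start site (TSS) to a peak among the 20 strongest of the optimal peak list. These 10 peaks, of 6152 in that list, are described here. They were chosen by the authors' signal value of each peak, so the strength of the peaks is a description and no test was made on it. The genes are CG14100, Ugalt, Art3, CG11050, CG18549, Fkbp14, CG1888, CG31668, hll and CG11309. The list is not every such gene, since mRpL41, Chro, Lk6 and CG32772, also among the 20 strongest, could be counted in by the same wording and are kept apart here. Of the other 10 peaks, 3 lay at E(spl) genes, and the remaining 7 had px, cbt, ph-p, mRpL41, Chro, Lk6 and CG32772 as the nearest protein-coding gene. The last of these 20 peaks, at CG32772, had a signal of 2841.9, and the first peak outside, at rank 21 and nearest to CG5611, had 2826.0.

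The peaks come from chromatin immunoprecipitation and sequencing with an anti-GFP antibody in whole Drosophila melanogaster embryos of both sexes, collected at 4 to 14 h, of a transgenic line carrying E(spl)m8-HLH tagged with GFP at its C-terminus. There were 2 biological replicates of this line (replicate 2 and replicate 3) and no untagged or untreated group. A single line was used, and whole embryos mix all tissues, so a peak does not say in which cells the tagged protein was bound. The control library that the labels name was not analysed here, and the depth of each replicate is unknown because the files hold peaks and not reads.

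E(spl)m8-HLH is a basic helix-loop-helix repressor of the Hairy/E(spl) family, which is switched on by Notch signalling. Proteins of this family bind DNA as dimers at E-box-like sites such as CACGTG and CACGCG and recruit the corepressor Groucho, and they are best known for keeping cells from neural fate. Other functions are annotated for some of the genes described here. Whether these genes also act in Notch signalling or development was not examined. Ugalt encodes a Golgi transporter of UDP-galactose, Art3 a protein arginine methyltransferase, Fkbp14 a peptidyl-prolyl isomerase of the FK506-binding family, and hll (heimdall) an acyl-CoA synthetase of the bubblegum type. RefSeq lists MFSD11 as a synonym of CG18549 and dSLC5A12 as a synonym of CG31668, names used in human for a membrane carrier of the major facilitator superfamily and for a sodium-coupled monocarboxylate transporter. RefSeq calls the products of 6 of the 10 genes, those named by a CG number, uncharacterized proteins. A metabolic role is therefore annotated for only some of the 10, and they are called here the 10 peaks.

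The sequences of 5 of the 10 peaks are shown because the results on start sites, base composition and short shared elements rest on them. They are from the RefSeq Release 6 sequence (dm6 coordinates), plus strand, and stop at the start of the nearest transcript where that lies inside the window. For CG14100 (chr3L:19590525-19590711) and Ugalt (chrX:2703853-2703989) capitals mark the element TACGCCCA on either strand, and for CG18549 (chr3R:12449023-12449295) they mark CACGCG, also on either strand. For Art3 (chr3R:15229409-15229664, the whole interval between Art3 and its divergent neighbour) and CG31668 (chr2L:2202299-2202499) capitals mark the 101 bases centred on the summit.
CG14100: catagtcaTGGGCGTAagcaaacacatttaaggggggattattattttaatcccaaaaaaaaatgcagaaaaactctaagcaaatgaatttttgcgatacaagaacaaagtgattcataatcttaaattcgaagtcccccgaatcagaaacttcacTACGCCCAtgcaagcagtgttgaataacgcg
Ugalt: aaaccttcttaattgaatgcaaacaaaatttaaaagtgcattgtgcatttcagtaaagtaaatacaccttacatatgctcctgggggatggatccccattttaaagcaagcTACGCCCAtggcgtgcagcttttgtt
Art3: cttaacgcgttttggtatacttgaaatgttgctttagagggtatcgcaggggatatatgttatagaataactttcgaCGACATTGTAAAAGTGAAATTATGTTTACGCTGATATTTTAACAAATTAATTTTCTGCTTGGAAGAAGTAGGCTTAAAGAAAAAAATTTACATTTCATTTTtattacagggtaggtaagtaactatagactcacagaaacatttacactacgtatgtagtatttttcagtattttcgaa
CG18549: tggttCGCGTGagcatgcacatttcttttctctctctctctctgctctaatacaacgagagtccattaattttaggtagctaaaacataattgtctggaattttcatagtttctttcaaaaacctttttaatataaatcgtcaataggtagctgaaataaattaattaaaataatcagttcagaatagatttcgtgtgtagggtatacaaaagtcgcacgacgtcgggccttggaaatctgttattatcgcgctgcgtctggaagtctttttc
CG31668: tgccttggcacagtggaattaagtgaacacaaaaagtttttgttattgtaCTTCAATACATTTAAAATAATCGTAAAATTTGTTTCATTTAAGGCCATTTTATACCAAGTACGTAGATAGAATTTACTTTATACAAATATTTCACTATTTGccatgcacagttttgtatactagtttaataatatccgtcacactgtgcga

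The capitals of Art3 hold 24.8% G+C and those of CG31668 hold 22.8%. The summit of CG14100 lies between 2 copies of TACGCCCA in opposite orientation, each reading 5' to 3' away from the summit. The only CACGCG within 150 bp of any of the 10 summits is the one shown for CG18549, which begins at -135 bp from the summit, in the last bases of the 3' untranslated region of the neighbouring gene vrs.

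The 10 peaks were found in both replicates at nearly the same base. Every one of the 10 had a summit within 2 kb in all 4 peak lists (optimal, pooled, replicate 2 and replicate 3), against 99.0% of the whole optimal list, so presence alone sets them apart little. They also all had one within 200 bp, against 98.0% of the optimal list. The optimal and pooled lists gave the same summits and signal values for these peaks, so only the replicate lists add to the comparison. In replicate 2 the nearest summit lay at most 5 bp from the optimal summit, with a median of 1.0 bp, against a median of 14.0 bp over all 6152 optimal peaks. In replicate 3 it lay at most 13 bp away, with a median of 6.5 bp, against 13.0 bp over all. The other strong peaks were also close. The 3 at E(spl) genes lay at most 8 bp away in replicate 2 and 46 bp in replicate 3. The 7 others lay at most 34 bp and 12 bp away. The optimal summits equal those called on the pooled replicates, so closeness to each replicate is partly built in. Whether it follows from peak strength was not tested. Each of the 10 had the same −log10 q-value as the strongest peak of its list, 4.08 in replicate 2 and 4.27 in replicate 3, so that column does not rank them.

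In the optimal list the 10 peaks had a median signal of 3253.1, which is 10.9 times the median of 298 for the 2474 optimal peaks within 500 bp of any TSS. The range of the 10, from 2890.3 to 4381.9, was 9.7 to 14.7 times that median. The 10 were chosen by this value, so a high ratio was fixed by the choice. CG11050 and CG31668 are not within 500 bp of a TSS and so are not among the 2474. The signal is the authors' enrichment value and is compared only within a list.

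CG14100 had the strongest peak of the 10, with a signal of 4381.9 in the optimal list. It had 2729.8 in replicate 2, at rank 2, and 1664.8 in replicate 3, at rank 7. Ugalt had 4057.1 in the optimal list, 2356.4 in replicate 2 and 1716.4 in replicate 3, and ranked 5 in both replicates. It was the strongest of the 10 in replicate 3, where CG14100 came below it.

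Art3 had 3906.2 in the optimal list, 2418.7 in replicate 2 (rank 4) and 1506.9 in replicate 3 (rank 11). CG11050 had 3758.4 in the optimal list, 2098.4 in replicate 2 (rank 7) and 1658.8 in replicate 3 (rank 8). The order of these neighbours turned between the replicates: Art3 stood above CG11050 in replicate 2 and below it in replicate 3.

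CG18549 had 3310.4 in the optimal list, 1897.2 in replicate 2 (rank 9) and 1428.8 in replicate 3 (rank 14). Fkbp14 had 3195.8 in the optimal list, 1710.3 in replicate 2 and 1486.8 in replicate 3, at rank 13 in both. These neighbours also changed places, with Fkbp14 the higher of them in replicate 3. CG1888 had 3067.1 in the optimal list, 1879.1 in replicate 2 (rank 11) and 1211.6 in replicate 3 (rank 23).

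CG31668 had 3022.2 in the optimal list, 1510.5 in replicate 2 (rank 20) and 1526.7 in replicate 3 (rank 10). Its rank was 10 places better in replicate 3, where CG11309 gained 1 place and none of the others gained any. The peak assigned to hll had 2971.0 in the optimal list, 1883.6 in replicate 2 (rank 10) and 1107.7 in replicate 3 (rank 33), the widest gap in rank among the 10. CG11309 had 2890.3 in the optimal list, 1520.3 in replicate 2 (rank 19) and 1368.8 in replicate 3 (rank 18).

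**Figure D1:**
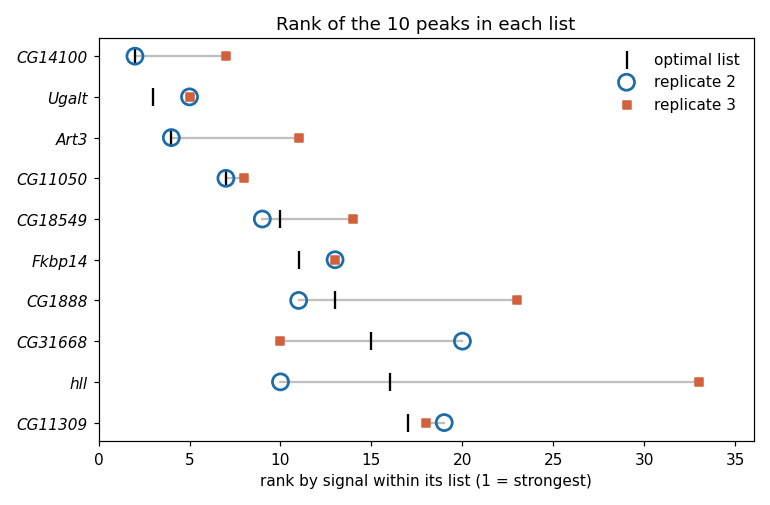
Rank by signal within its own list (horizontal axis, 1 is the strongest) for each of the 10 peaks (vertical axis), in the optimal list (bars), replicate 2 (circles) and replicate 3 (squares), with a grey line joining the replicates. The ranks run from 2 to 20 in replicate 2 and from 5 to 33 in replicate 3, and the longest line is that of hll.

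Both replicate lists hold 30000 peaks, so ranks can be set side by side. All 10 peaks were among the 20 strongest in replicate 2, and 8 were in replicate 3, where CG1888 and hll fell outside. Of the 10, 6 ranked better in replicate 2, 2 ranked better in replicate 3 (CG31668 and CG11309) and 2 ranked the same (Ugalt and Fkbp14). The 3 peaks at E(spl) genes all ranked better in replicate 3, with ranks of 1 to 12 there and 21 to 64 in replicate 2. Of the 7 others, 6 ranked better in replicate 2, so a better rank there is not particular to the 10. How many of all optimal peaks ranked better in either replicate was not counted. With 2 replicates these ranks are a description, and the cause of the difference between the replicates was not tested.

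The 10 peaks were as narrow as a usual peak of the list. They spanned 386 to 550 bp in the optimal list, with a median of 425 bp, against 424 bp over the 2474 peaks within 500 bp of a TSS. The 3 peaks at E(spl) genes spanned 1053 to 1760 bp, and the 7 others 410 to 786 bp. Neither the 10 nor the 7 others overlapped the E(spl) peaks in width, so this is not particular to the 10. The share of all optimal peaks as wide as the E(spl) peaks was not counted.

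**Figure D2:**
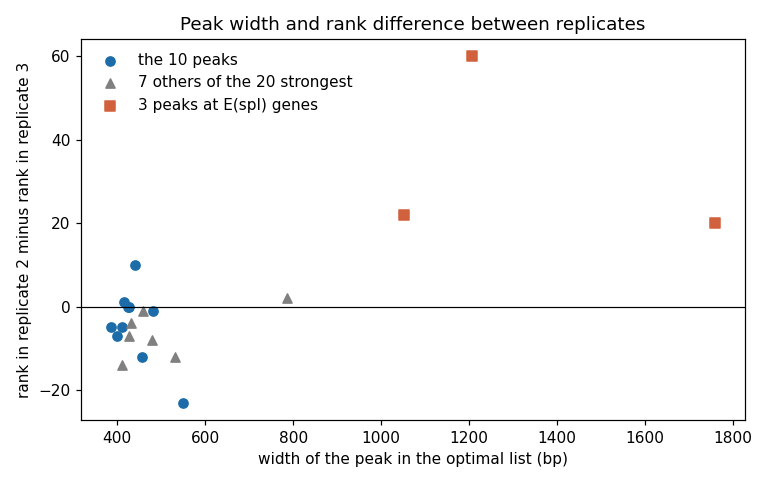
Width in the optimal list (bp, horizontal axis) against the rank in replicate 2 minus that in replicate 3 (vertical axis, above 0 where replicate 3 ranks the peak better), 1 point for each of the 20 strongest peaks. The 10 peaks lie at 386 to 550 bp and mostly at or below 0, while the 3 E(spl) peaks lie above 1000 bp and above 0.

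The summits lay close to start sites in most cases. Of the 10, 8 had a summit within 500 bp of a TSS of some gene, against 40.2% of the optimal list, and 7 had it within 500 bp of a protein-coding TSS, against 37.0%. The nearest TSS helped to assign the genes but set no distance, and no test was made. The median distance to the nearest TSS of any gene was 126 bp. Of the 8, 6 were upstream of the nearest TSS (CG14100, Ugalt, Art3, CG18549, Fkbp14 and CG1888). The other 2 were just downstream of it (CG11309 and the peak assigned to hll). The Fkbp14 and CG1888 summits also lay inside transcripts of the same gene that start further out.

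**Figure D3:**
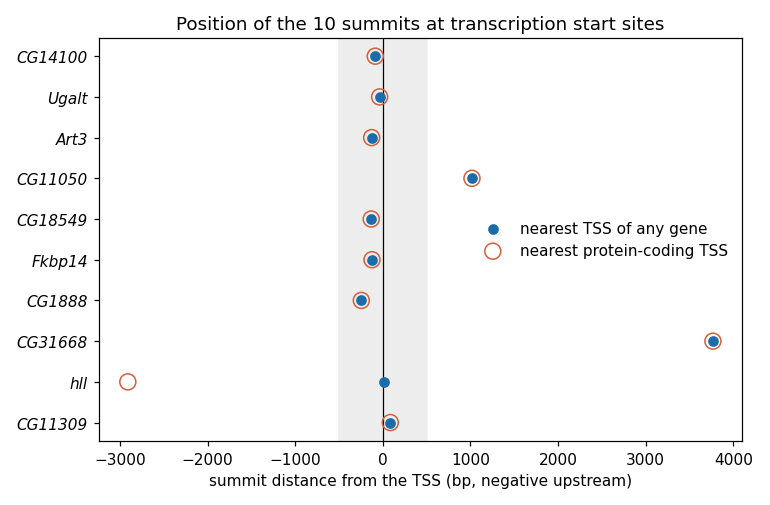
Distance of each of the 10 summits from the nearest TSS of any gene (filled) and from the nearest protein-coding TSS (open), in bp, negative upstream, with 500 bp on each side of the TSS shaded. Only CG11050 and CG31668 lie outside the shaded band by both measures, and hll lies inside it only by the TSS of a non-coding gene.

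At CG14100 the summit (chr3L, base 19590611) was 87 bp upstream of the only annotated TSS (distance -87 bp), in DNA between genes. The 3' end of ash1, which encodes a trithorax group histone methyltransferase, lay 162 bp from the summit on the other side, and the peak (chr3L:19590418-19590827, 410 bp) extended over the whole gap between these genes. Using the replicate summits, the distance was -88 bp in replicate 2 and -83 bp in replicate 3. At CG18549 (peak chr3R:12448977-12449362) the summit was 133 bp upstream (-133 bp in the optimal list and replicate 2, -121 bp in replicate 3). The gene before it in the same orientation, vrs, ended 117 bp from the summit and began 1510 bp from it. Both summits thus lay in a short gap between the end of a neighbouring gene and a start site.

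Divergent gene pairs, with start sites of opposite strands head to head at most 1 kb apart, were found at 3 of the 10 (Ugalt, Art3 and CG11309), against 23.9% of the optimal list and 41.2% of its peaks within 500 bp of a TSS. This share is near the background. At Art3 (peak chr3R:15229326-15229724) the summit was 128 bp upstream of Art3 and 129 bp upstream of mRpS10, a mitochondrial ribosomal protein gene (distances -128 and -129 bp), whose start sites are 257 bp apart. The summit therefore sat at the midpoint of the pair, and a difference of 1 bp decided which gene names the peak. Of 2 further genes with a TSS within 2 kb, CG34316 had the summit at -1049 bp and the antisense RNA gene asRNA:CR43471 at 1967 bp.

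At Ugalt (peak chrX:2703673-2704098) the summit was 37 bp upstream of the most upstream TSS (-37 bp, used by 1 of 3 transcripts) and at -144 bp from the other TSS, which 2 transcripts use. The divergent neighbour was eIF2Bbeta, which encodes a subunit of a translation initiation factor, with its TSS 682 bp from the summit and 719 bp from that of Ugalt. This summit was far closer to Ugalt than to its partner. At CG11309 (peak chr3L:21304363-21304778) the summit was 85 bp inside the transcript with the outermost TSS, in an intron, and 124 bp from the TSS of CG7632, the start sites being 39 bp apart. It was also upstream, at -106 bp, of the TSS that 4 of the 6 CG11309 transcripts use.

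Fkbp14 and CG1888 lie on chromosome arm 2R and have several start sites. The Fkbp14 summit (peak chr2R:21497136-21497559) was 124 bp upstream (-124 bp in all lists) of the TSS that 2 of its 5 transcripts share, and lay in an intron of the transcript that starts 595 bp further out. Start sites at -560 and -1810 bp served the other 2 transcripts. CG46395 had a TSS 1247 bp from it (-1247 bp), head to head with Fkbp14 but 1371 bp from the Fkbp14 TSS nearest to the summit, beyond the limit for a divergent pair, which was applied to that TSS and not to the outermost one. The CG1888 summit (peak chr2R:9546987-9547441) was upstream of the TSS of 2 transcripts, at -246 bp, and 931 bp inside the other 2, in the 5' untranslated part of an exon. Both summits thus sat upstream of an internal start site within the gene.

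The other 3 peaks were not at the promoter of the gene that names them. The CG11050 summit (peak chr2L:6612444-6612923) lay in an intron, 1017, 1298 and 1693 bp downstream of the 3 annotated start sites, each used by 1 transcript. No other gene had a TSS within 2 kb. The CG31668 summit (peak chr2L:2202179-2202617) lay 3767 bp downstream of the only TSS and 1322 bp beyond the 3' end of the gene, in intergenic DNA. No TSS of any gene lay within 2 kb of it. The next protein-coding gene on that side, COX7AL2, had its 5' end 4487 bp away. The peak assigned to hll (chr2L:14023876-14024425) had its summit at -2911 bp from the hll TSS, but the summit was 9 bp inside the exon that begins the long non-coding RNA gene lncRNA:CR31840, on the opposite strand to hll. The replicate summits were 10 bp and 8 bp inside that gene in replicates 2 and 3. By all annotated genes, this peak belongs to lncRNA:CR31840 and not to hll.

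The 10 peaks differed in how near and how strong their next neighbour in the optimal list was. The signal of each was 2.82 to 23.6 times that of its neighbour, with the lowest ratios at hll and CG31668 and the highest at CG14100, and since the 10 were chosen by signal only the spread of these ratios is of use. CG14100 had its next optimal summit 4431 bp away, with a signal of 186.1, nearest to CG9330. At Art3 the next optimal summit was 12977 bp away (210.2) and at Ugalt 28396 bp away (518.4). Ugalt, Art3, CG18549 and CG11309 had no other optimal summit within 5 kb, 4 of 10 against 36.4% of the optimal list, a share near the background.

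The remaining genes had company. CG1888 had 3 other optimal summits within 5 kb, the nearest 629 bp away with a signal of 219. Fkbp14 had 2, the nearest 929 bp away with 296.3, and CG11050 had 1, at 1755 bp with 272.9, in the same gene. CG31668 had 2, with a summit of 1012 at 1166 bp, and the hll peak had 2, with a summit of 1052.3 at 1764 bp. These last neighbours, at ranks 359 and 325, were themselves strong peaks, so the 2 peaks of the set that lie farthest from the protein-coding gene naming them are those with strong companions.

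The summits were poor in G and C. The 101 bases centred on the summit held a median of 24.8% G+C over the 10 peaks (range 20.8 to 40.6%), against a median of 31.7% over the 2474 optimal peaks within 500 bp of a TSS (quartiles 25.7 and 42.6%). The 200 bp beyond that window on each side held a median of 46.8% over the 10 (36.2 to 50.8%), against 40.2% over the 2474 peaks (quartiles 36.8 and 44.2%). All 10 values lie inside the range of the larger set. CG11050 and CG31668 are not within 500 bp of a TSS and so are not in that set. Over all 6152 optimal peaks the median was 32.7% in the summit window and 41.8% in the 200 bp on each side beyond it. Whether base composition affected the signal values was not tested.

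Fkbp14 had the lowest G+C at the summit, 20.8% against 49.5% in its shoulders, and 6.43% of the 2474 peaks were lower at the summit. CG11050, CG18549 and CG31668 each had 22.8% at the summit, and their shoulders held 50.8, 37.8 and 50.5%. Art3 and CG11309 had 24.8% and CG14100 26.7%, with shoulders of 36.2, 39.0 and 38.0%. CG1888 (32.7%), Ugalt (35.6%) and hll (40.6%) were above the median of 31.7%, so 7 of the 10 were below it. In the shoulders 6 of the 10 were above the median of 40.2% and 4 were below it (CG14100, Art3, CG18549 and CG11309). In all 10 the shoulders held more G+C than the summit, by 7.16 percentage points at hll to 28.7 at Fkbp14, and so they did in 72.9% of the optimal list and 70.7% of its peaks within 500 bp of a TSS.

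**Figure D4:**
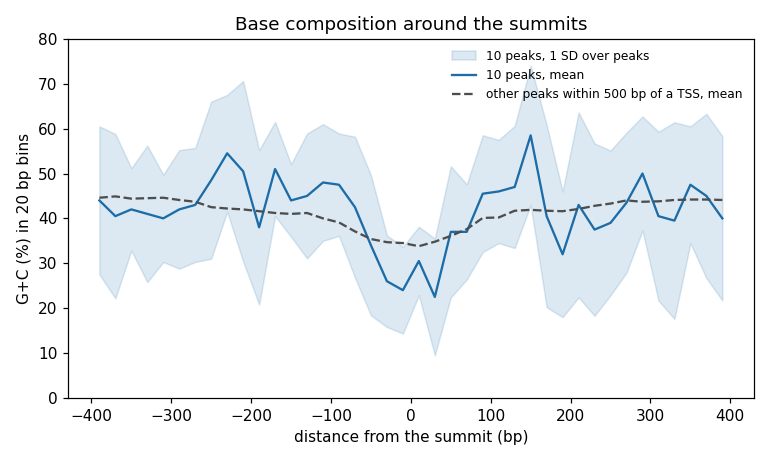
G+C content (%) in bins of 20 bp against the distance from the summit (bp), as the mean over the 10 peaks (solid, shaded by 1 SD over peaks) and over the other optimal peaks within 500 bp of a TSS (dashed). In the bin centred 10 bp before the summit the 10 peaks hold 24.0% and the others 34.5%, while further out the curves cross, with 46.0% and 40.2% at 110 bp after the summit but 32.0% and 41.6% at 190 bp.

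Known sites of the Hairy/E(spl) family were not present at the summits. Neither CACGTG nor CACGCG lay within 50 bp of any of the 10 summits, against 2.0% and 3.32% of the optimal list, and with such low shares 0 of 10 is near the background. Within 150 bp none held CACGTG, against 5.38% of the list, and only CG18549 held CACGCG, against 8.75%. CACNAG, the N-box, was likewise in 0 of 10 windows against 9.93%, and CAGCTG in 0 of 10 against 4.84%. These letters being absent from a window says nothing about how the protein reached it.

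The degenerate E-box CANNTG, which takes in every E-box named here, lay within 50 bp of 4 summits (CG14100, Ugalt, CG1888 and hll), against 37.5% of the optimal list. Among these CATATG was found at Ugalt only, against 4.14%. Both shares are near the background. Motifs were searched on both strands.

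Motifs of housekeeping promoters were absent as well. ATCGATA, the core of the DREF and BEAF-32 site, and its longer form TATCGATA were in 0 of 10 windows, against 2.6% and 1.14% of the list, and GGTCACAC, the core of the M1BP site, was in 0 of 10 against 0.78%. The GAGA factor site GAGAG (11.0%), the GATA site AGATAA (7.93%) and the CREB-type site TGACGTCA (0.114%) were also in none of the 10. With 10 windows, 0 is near the background at shares of this size. The homeodomain site TAATTA was in 3 of 10 (CG11050, CG18549 and CG1888), against 9.85%. Within 25 bp of the summit it was in 0 of 10, against 4.83%. AAAAAA was in 3 (CG14100, Art3 and Fkbp14), against 25.1%, and TATAAA in 3 (CG18549, Fkbp14 and CG31668), against 21.4%, both near the background. AAAAAA was in 0 of 10 within 25 bp, against 12.3%. For both TAATTA and AAAAAA, 0 of 10 within 25 bp is near the background.

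A short element shared by some of the 10 was noticed when their sequences were read, so its count among them is a description. TACGCCCA lay within 150 bp of the CG14100 and Ugalt summits, 2 of 10, against 32 of 6152 peaks of the optimal list (0.52%). At CG14100 the copies began 78 bp before and 70 bp after the summit (offsets -78 and 70), in opposite orientation, as printed in capitals above, and at Ugalt the copy began 75 bp after it. Only 2 of the 6152 windows held more than 1 copy. A second pattern that overlaps it, ACGNCCATG, also taken from the sequences after they were seen, was in 3 of the 10 (CG14100, Ugalt and CG1888, where it began 57 bp after the summit), against 0.585% of the list. Of the 2474 peaks within 500 bp of a TSS, 0.889% held TACGCCCA and 1.01% held ACGNCCATG. Among the 100 strongest peaks 6 held TACGCCCA. These 100 include the 10, and CG14100 and Ugalt are among the 6, so that count is not independent of how the element was found. No factor is assigned to this element here.

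Peaks at relatives of these genes were counted over 4 families. In all, 31 of their genes were found in the annotation, and 10 of them had an optimal summit within 500 bp of a TSS, 3 being Art3, Fkbp14 and Ugalt. Of the 27 genes that are not among the 10, 7 had such a summit, against 20.4% of all 13945 protein-coding genes, a share near the background. The lists were chosen with the 10 genes known, and since the 10 were chosen by signal, the signal values of the relatives are given as a description and not set against theirs.

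Among arginine methyltransferases, which modify histones and RNA-binding proteins, 2 of 8 genes beside Art3 had a summit: Art4 (184, 200 bp from its TSS) and Art8 (350.2, at 114 bp, where the nearest TSS was that of dUTPase). No FK506-binding protein gene other than Fkbp14 had a summit within 500 bp of a TSS (0 of 5: Fkbp12, Fkbp39, Fkbp59, shu and zda). Of 7 nucleotide sugar transporter genes beside Ugalt, senju (284.7) and meigo (266.7) had one, and the summit for senju was nearest to the TSS of eIF3h. Of 7 acyl-CoA synthetase and fatty acid transport genes beside hll, 3 had one: pdgy (1466.7, rank 148, 240 bp from its TSS), AcCoAS (371.5) and Fatp3 (291.1). The pdgy peak was the strongest among these 27 relatives, and the other 6 ranked between 2141 and 5545.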

How the data were processed

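Per the file headers and labels, the authors deposited 4 peak lists on the assembly dm6. These were the peaks of replicate 2, those of replicate 3, those of the pooled data, and an optimal set derived from all of these after thresholding by irreproducible discovery rate. The signal of a peak and its −log10 q-value are the authors' deposited values and were used only within a list. The sources used here do not name the aligner, the peak caller or the thresholds. Chromatin was sheared to 200 to 800 bp, per the labels.

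Summits were compared with the Release 6 sequence and Ensembl release 115 genes, transposable elements left out, with Python 3.11.15, pandas 2.3.3 and numpy 2.4.6. All peaks lay within their chromosome arms. A distance is from the summit to a TSS, negative upstream. Motifs were sought on both strands within 50 bp of the summit (101 bp). The search for motifs, nearest TSS and divergent pairs was tested on simulated data. With 1 group and members chosen by signal, no p-value was computed, and shares are set beside those of all 6152 optimal peaks. The 4 families of relatives hold Csat and dbb as older names of Ugalt and hll, counted once.

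Named genes were the 10, those with a TSS within 2 kb of a summit or holding it, the rest of the 20 strongest, and relatives with a summit within 500 bp of a TSS. Other neighbours, and relatives without a summit, were named after their values were seen. The genes and lists were chosen with earlier results of these data known.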

Additional observations from a re-analysis of the deposited data

How the results depend on the processing

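The count of peaks present in all 4 lists was 10 with summits within 500 bp or 200 bp, in the stronger 50% of each list, and without either replicate. The count within 500 bp of a TSS, 8, ran from 6 with 1 TSS per gene to 8 under the other settings tried, with 7 for windows of 200 bp and for protein-coding TSS. It was 8 without either replicate. Divergent pairs numbered 2 at 500 bp and 4 at 2 kb, against 3. The median distance to a TSS, 126 bp, was 121.5 bp without replicate 2, 125.5 bp without replicate 3 and 130.5 bp with protein-coding TSS only. The distance of the hll peak turned to -2911 bp with protein-coding TSS only, since the nearest TSS is then that of another gene. Over all motifs, the 10 windows held 14 motif and peak pairs, 5 with windows of 25 bp, which are shorter, and 21 with windows of 100 bp, which are longer. A CATATG site also counts as CANNTG. No total over all optimal peaks was set beside these, so they show only the dependence on the window. Of the 20 strongest, the 10 made up 8 without replicate 2 and 10 without replicate 3. Relatives with a summit numbered 13 at 1 kb, 10 without replicate 2 and 11 without replicate 3, against 10. No paired analysis was possible because there is 1 group and no test. Depth is unknown, so no interval is given for a signal value, and 2 replicates give no spread beyond their own 2 values.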
